A study of Mus musculus with 12 samples.

Results

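Nrip1 and 8 genes for corepressor proteins that RIP140, the product of Nrip1, is known to work with or beside were followed across 4 groups of mouse muscle. The 9 genes are Nrip1, Ctbp1, Ctbp2, Ncor1, Hdac3, Hdac4, Hdac5, Hdac9 and Sirt1. They and the gene lists used below were chosen by name, but with earlier results of these data known. Each of the 9 had 1 row among the 17752 genes of the expression table. The RNA came from the extensor digitorum longus (EDL) of male mice, a hind limb muscle made up mostly of fast-twitch fibres, and was measured by RNA-seq. The labelled WT mice were, per the study, littermates with a floxed Nrip1 gene and no Cre. The labelled strNrip1-/- mice carried the same floxed gene and Cre under the muscle creatine kinase promoter, which is active in heart and skeletal muscle, so other cells of the muscle kept an intact gene. Each genotype was kept sedentary or given voluntary wheel running (trained) from an age of 8 weeks, with 3 libraries in each of the 4 groups and 12 in all. The study asked what loss of RIP140 does to muscle gene expression and how training bears on it. Nothing in the labels says how the 3 libraries of a group relate beyond their numbers, so p-values measure the spread between these libraries. Libraries are called by their labels throughout, because the gene-level value of Nrip1 was higher in the libraries labelled strNrip1-/-, and whether each label matches the genotype of its mouse was not tested.

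RIP140 is a coregulator that is recruited to DNA by nuclear receptors, among them the estrogen-related receptors, and it lowers transcription by bringing other proteins with it. The C-terminal binding proteins CtBP1 and CtBP2 are dimeric corepressors that bind a short motif in RIP140 and link it to histone-modifying enzymes. NCoR1 is a large scaffold that holds and activates the deacetylase HDAC3 on unliganded nuclear receptors. HDAC4, HDAC5 and HDAC9 are class IIa deacetylases, which have little enzymatic activity of their own, bind MEF2 transcription factors, and are moved out of the nucleus in working muscle when calcium-dependent kinases phosphorylate them. SIRT1 is a deacetylase that needs NAD+ and acts on transcription regulators such as PGC-1alpha. Much of this control lies in protein contacts, phosphorylation and location, which mRNA levels do not show.

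Expression was given as FPKM, fragments per kilobase of transcript scaled by depth, so levels can be compared between genes per length. The libraries corresponded to between 19.97 M and 29.1 M fragments, as estimated from the spacing of low values. The gene with the fewest fragments was Hdac9, with 146 to 367 fragments in a library if all came from its longest annotated transcript, and Sirt1 rested on 234 to 348. limma was run on log2(FPKM + 0.5) for the 12744 genes whose mean reached 0.5 FPKM, and all 9 members were among them. A gene was called when its Benjamini-Hochberg adjusted p-value over all genes tested was below 0.05 and its fold change above 1.2. All log2 fold changes below are differences on the log2(FPKM + 0.5) scale, which understates the change of low genes.

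Fast muscle markers were abundant in every library, and their summed level was lower in libraries labelled strNrip1-/-, between 112573 and 151557 FPKM when sedentary and between 129068 and 134550 when trained. In labelled WT libraries it was between 151289 and 168028 FPKM when sedentary and between 148296 and 179877 when trained. Summed endothelial markers ran from 81.9 to 94.1 FPKM in labelled WT and from 97.9 to 112 FPKM in labelled strNrip1-/- libraries. Of the 10 fast muscle markers 5 were called lower, and of the 8 endothelial markers 3 were called higher, in the difference between labelled genotypes averaged over both training states, where 8.8% of all genes tested were called. When sedentary, 1 fast muscle and 0 endothelial markers were called, against 3.51% of genes. When trained, 1 fast muscle marker was called lower and 1 endothelial marker higher, against 5.98%. Mitochondrially encoded transcripts took 51.2% to 52.8% of the summed FPKM in labelled strNrip1-/- sedentary libraries and 42.2% to 47.3% in the others. In bulk muscle, fewer cells of a type and less RNA per cell cannot be told apart, and the part of these shifts in the values below was not tested. Markers of adipocytes, macrophages, Schwann cells, fibroblasts, tendon and blood were also detected in every group, and none of them was called between the labelled genotypes in either training state or on average. The summed adipocyte markers were nevertheless between 171 and 214 FPKM in labelled WT and between 232 and 352 FPKM in labelled strNrip1-/- sedentary libraries, without overlap, and the 6 of 8 that were tested all had positive log2 differences there, with a median of 1.15. In trained libraries the sums overlapped, with 208 to 249.2 FPKM in labelled WT and 220.0 to 336 FPKM in labelled strNrip1-/- mice. Fibroblast sums of the labels did not overlap in either training state, in opposite directions. When sedentary they ran from 436.9 to 477.8 FPKM in labelled WT and from 478.5 to 581 FPKM in labelled strNrip1-/- libraries. When trained they ran from 562 to 629 and from 472 to 556 FPKM. Of the 8 fibroblast markers 7 had positive log2 differences when sedentary and 0 when trained. In labelled WT, trained fibroblast sums lay above and trained Schwann cell sums below the sedentary ones.

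Nrip1 is described first, as the targeted gene. Its span on chromosome 16 is 76287400 to 76373827 (GRCm38, minus strand), for which GENCODE M21 lists 8 transcripts of 432 to 7868 nt. A single exon of 7616 nt, from 76287400 to 76295015, holds the whole coding sequence, from 76291185 to 76294667, and it is this exon that lies between the loxP sites. Of the 8 transcripts 5 include some of that exon and only 2 include its whole coding sequence. The other 3 are annotated as retained-intron transcripts of 1139 to 2823 nt that lie wholly upstream, outside the floxed segment. The gene-level FPKM used here adds all transcripts of the gene, and it does not say which part of the gene the fragments came from.

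**Figure D1:**
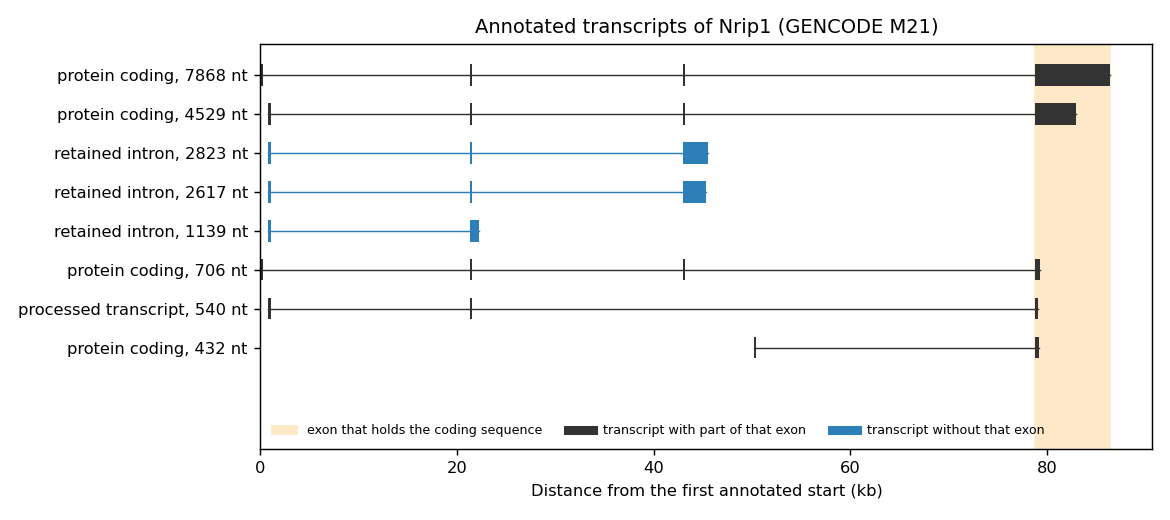
The 8 annotated Nrip1 transcripts, each on a line of its own with exons as boxes, against distance in kb from the first annotated start (short exons are drawn 0.25 kb wide so that they can be seen). The shaded band is the exon that holds the coding sequence, and the 3 transcripts in blue, of 1139 to 2823 nt, end before it.

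The start regions used by 7 of the 8 annotated transcripts of Nrip1, for which RefSeq promoter windows were given, are shown because both lie upstream of the floxed segment, so that by design they are the same in both labelled genotypes. The sequences are the RefSeq promoter windows of 250 bases (GRCm38.p6, minus strand, 5′ to 3′), with CG dinucleotides in capitals.
Nrip1 promoter 1, chr16:76373828-76374077: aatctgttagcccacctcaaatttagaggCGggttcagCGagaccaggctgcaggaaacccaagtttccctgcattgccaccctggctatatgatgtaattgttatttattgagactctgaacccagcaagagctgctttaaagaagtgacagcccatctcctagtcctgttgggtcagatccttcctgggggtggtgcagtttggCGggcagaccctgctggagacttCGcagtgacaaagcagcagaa
Nrip1 promoter 2, chr16:76373050-76373299: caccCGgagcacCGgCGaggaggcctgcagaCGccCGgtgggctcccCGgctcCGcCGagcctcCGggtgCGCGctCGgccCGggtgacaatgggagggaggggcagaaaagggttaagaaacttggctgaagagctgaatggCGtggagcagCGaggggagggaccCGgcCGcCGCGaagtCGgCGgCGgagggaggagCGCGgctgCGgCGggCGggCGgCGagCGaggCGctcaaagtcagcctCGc
The upstream window holds 4 CG dinucleotides and has a GC content of 51.2%, near the median of 32851 mouse promoter windows (6 CG and 52.4%). The downstream window, 778 bases further into the gene, holds 32 CG dinucleotides at a GC content of 73.6%. On either strand, the GC box GGGCGG was found 2 times in the downstream window, in overlapping positions, and not in the upstream one, while 32.7% of all windows hold it. The nuclear receptor recognition motif AGGTCA was in neither window, and 14.0% of all windows hold it.

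Nrip1 was between 2.53 and 4.76 FPKM in the 6 labelled WT libraries and between 14.9 and 20.7 FPKM in the 6 labelled strNrip1-/- libraries. The ranges were far apart, in the direction opposite to that of a deletion. The log2 fold change averaged over both training states was 2.11 (95% interval 1.80 to 2.42, limma adjusted p-value 8.19e-06), a fold of 4.32. The difference did not change detectably with training, since the interaction was 0.06 (95% interval -0.56 to 0.67, limma adjusted p-value 0.979). Because FPKM divides by transcript length, the fragments behind a level depend on the transcripts: the mean of 3.33 FPKM in labelled WT sedentary libraries would be 565 fragments on the longest transcript, and the mean of 15.5 FPKM in labelled strNrip1-/- sedentary libraries would be 2769 fragments there but 294 on the retained-intron transcript of 1139 nt. Which transcripts carried the fragments was not tested.

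The 9 genes covered a wide range of levels. Ctbp1 stood highest, with a mean of 109 FPKM over the 12 libraries, above 96.4% of the genes in the table. Hdac5 at 37.8, Ncor1 at 35.3 and Hdac3 at 30.7 FPKM followed. Hdac5 overlapped Ncor1 in range and Ncor1 overlapped Hdac3, so these neighbours were not separated by the libraries' spread. Nrip1, at 9.97 FPKM over the 12 libraries, and Hdac4, at 9.58 FPKM, came next and overlapped. Ctbp2 at 4.29, Sirt1 at 2.64 and Hdac9 at 1.36 FPKM closed the order, each with all 12 libraries above the gene that followed it. Within the groups, Hdac5 and Ncor1 changed places, with Ncor1 higher in labelled strNrip1-/- sedentary and in labelled WT trained libraries. Nrip1 was at place 7 of the 9 in both labelled WT groups, below Hdac4 and Ctbp2, and at place 5 in both labelled strNrip1-/- groups, above them, and the places of the other genes were otherwise the same. The coefficient of variation over the 12 libraries was lowest for Ctbp1, at 4.92%, and Hdac3, at 5.17%. It was 10.6% for Sirt1, 30.1% for Hdac9 and 69.9% for Nrip1.

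**Figure D2:**
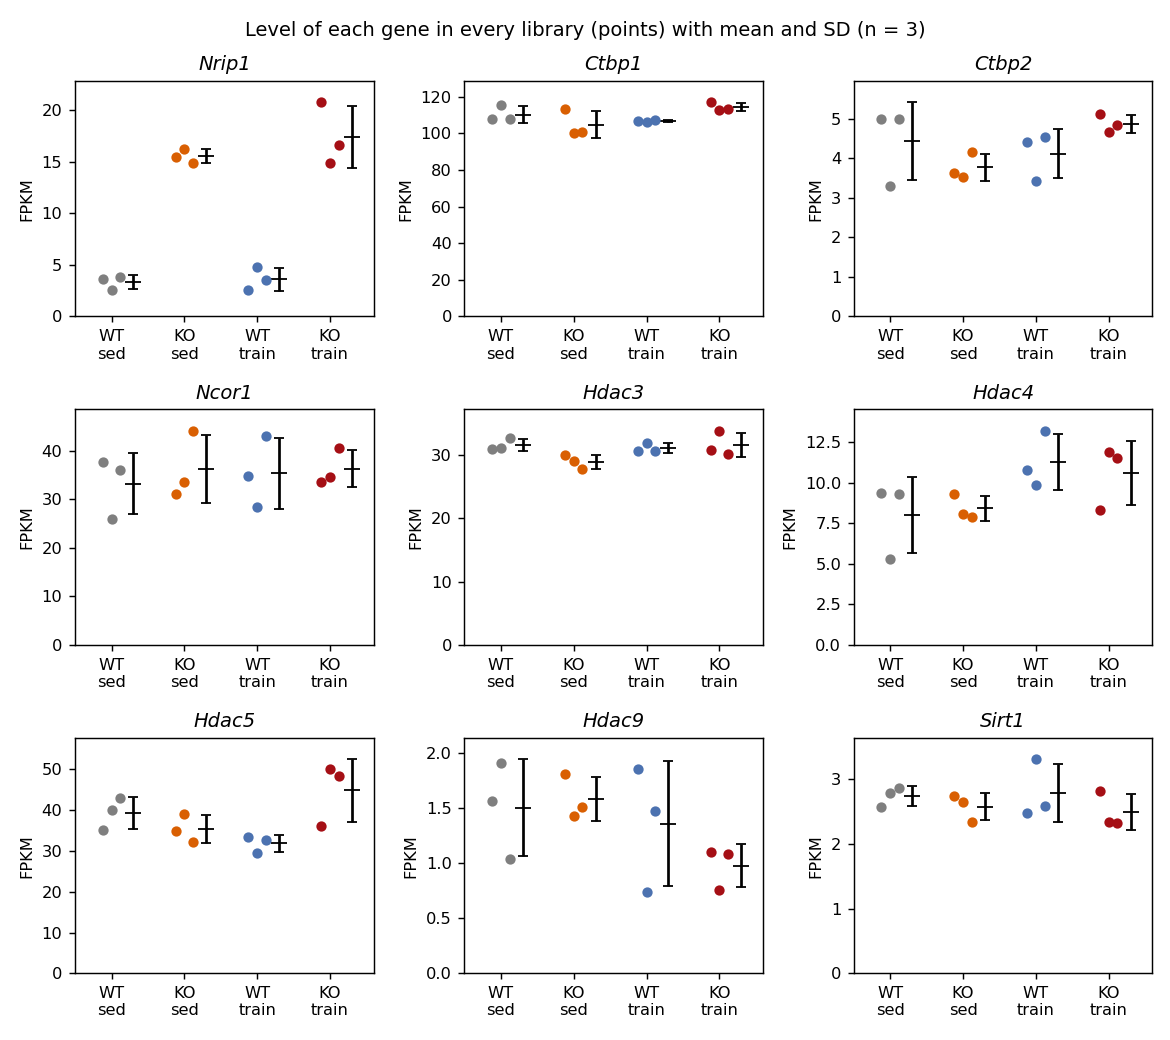
FPKM of the 9 genes in each of the 12 libraries (points, 3 a group; WT and KO are the labels, sed is sedentary and train is trained), with the group mean and SD in black; each axis starts at 0. Nrip1 splits by labelled genotype, with 2.53 to 4.76 FPKM in labelled WT and 14.9 to 20.7 FPKM in labelled strNrip1-/- libraries, while the groups of the other genes overlap over the 6 libraries of each label.

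None of the 8 partner genes was called in any comparison. In the difference between labelled genotypes averaged over both training states, where 8.8% of all genes tested were called, the only member called was Nrip1. The log2 fold changes of the 8 partners ran there from -0.11 to 0.16 and their 95% intervals from -0.48 to 0.37. For 3 of the 8, Ctbp1, Ctbp2 and Hdac3, the interval lay within a fold of 1.2 in either direction, and for the other 5 a change of that size was not excluded. In this average difference, the median absolute log2 fold change was 0.071 over the partners and 0.12 over all genes tested. With training in labelled strNrip1-/- libraries it was higher over the partners, at 0.21 against 0.13. For the interaction it was also higher, at 0.19 against 0.16, and in every other comparison it was lower. By the labelled genotype, 6 libraries against 6, Nrip1 was the only member whose ranges did not overlap, against 6.19% of all genes.

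Considered within a training state, Nrip1 was again the only member called, against 3.51% of genes in sedentary and 5.98% in trained libraries. Libraries of the 2 labelled genotypes did not overlap for 2 members when sedentary, Nrip1 upward and Hdac3 downward, against 20.7% of genes. When trained they did not overlap for 4 members, Nrip1, Ctbp1, Ctbp2 and Hdac5, each higher in labelled strNrip1-/- libraries, against 27.3% of genes. With training, no gene of the table was called by limma in labelled WT (0.0%, with 1061 genes at an unadjusted p-value below 0.05) or in labelled strNrip1-/- libraries (0.0%, with 1544 such genes), and 0.118% of genes were called when both were averaged. No gene was called for the interaction by limma either (0.0%, with 989 genes at an unadjusted p-value below 0.05). Trained and sedentary ranges did not overlap for 3 members in labelled WT (Hdac4 upward, Ctbp1 and Hdac5 downward, against 14.3% of genes) and for 3 in labelled strNrip1-/- libraries (Ctbp2 and Hdac3 upward, Hdac9 downward, against 16.9%). No member was separated by training over 6 libraries against 6, where 0.793% of genes were.

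**Figure D3:**
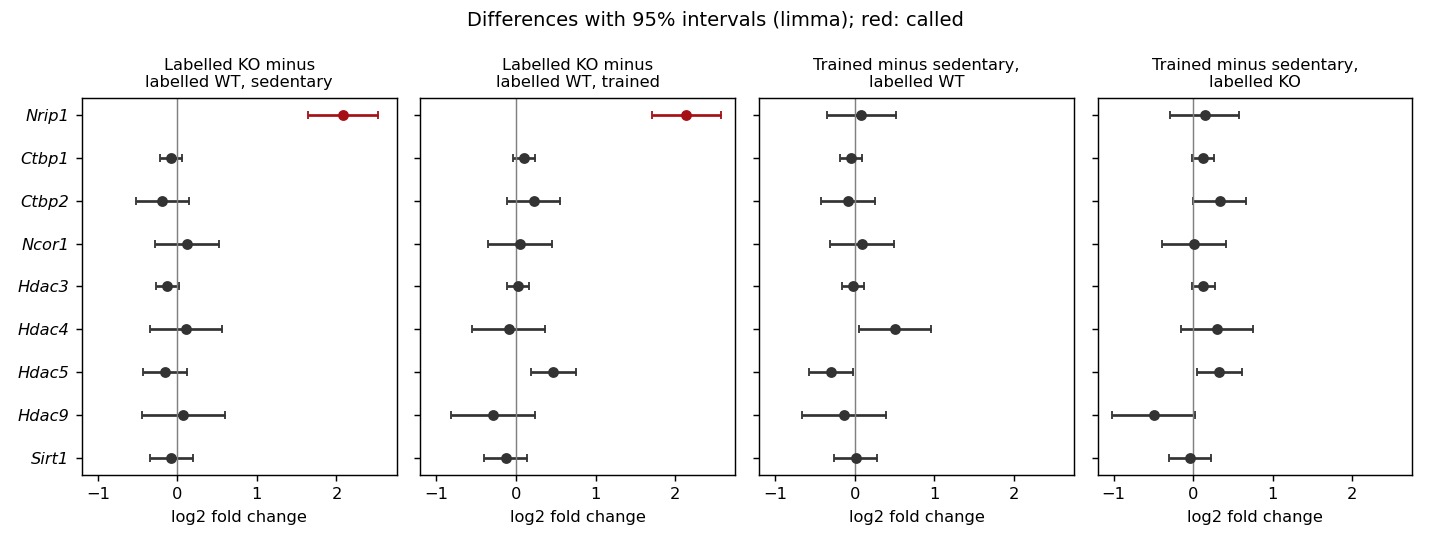
Log2 fold change (horizontal axis) of each of the 9 genes in 4 comparisons, with 95% intervals from limma over 12 libraries; red marks a called gene and KO stands for labelled strNrip1-/-. Nrip1 lies at 2.08 in sedentary and 2.14 in trained libraries, and of the partners Hdac5 in trained libraries, at 0.47 with an interval of 0.19 to 0.75, lies farthest from 0 relative to its error between the genotypes.

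The 2 CtBP genes differed in level by more than 20-fold in every group. Ctbp1 (chromosome 5, 33247723 to 33274994, minus strand) was at 108, 116 and 107 FPKM in labelled WT sedentary and at 113, 100.1 and 101 FPKM in labelled strNrip1-/- sedentary libraries. The trained libraries had 107, 106 and 107 FPKM in labelled WT and 117, 112 and 113 FPKM in labelled strNrip1-/- mice. The trained labelled strNrip1-/- libraries were thus all above the trained labelled WT ones, by a log2 fold change of 0.10 (95% interval -0.04 to 0.23, limma adjusted p-value 0.423), while the sedentary groups overlapped.

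Ctbp2 (chromosome 7, 132987563 to 133124354, minus strand) was at 5.0004, 3.30 and 4.99 FPKM in labelled WT sedentary and at 3.62, 3.52 and 4.16 FPKM in labelled strNrip1-/- sedentary libraries. Trained, the labelled WT libraries had 4.40, 3.42 and 4.54 FPKM and the labelled strNrip1-/- libraries 5.11, 4.65 and 4.83 FPKM. The second library of each labelled WT group was the low one. The training difference in labelled strNrip1-/- libraries was 0.33 (95% interval -0.00 to 0.67, limma adjusted p-value 0.416) with no overlap of the groups. Its difference from that in labelled WT libraries was 0.42 (95% interval -0.06 to 0.89, limma adjusted p-value 0.669). A stretch of 314 exonic bases of Ctbp2 is shared with Fgfr2, which was at 0.598 FPKM. The Ctbp1 to Ctbp2 ratio in FPKM was 26.0 ± 7.78 and 28.0 ± 3.52 in sedentary and 26.3 ± 4.17 and 23.5 ± 0.664 in trained libraries, labelled WT first (SD, n = 3 each), and the groups overlapped except that the labelled strNrip1-/- trained range, 22.9 to 24.2, lay just below the sedentary one of the same label, 24.23 to 31.2.

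Of the NCoR complex, Ncor1 (chromosome 11, 62316426 to 62458541, minus strand) had wide replicate spread. It was at 37.7, 26.0 and 36.0 FPKM in labelled WT sedentary and at 31.1, 33.6 and 44.1 FPKM in labelled strNrip1-/- sedentary libraries. The trained libraries had 34.8, 28.3 and 43.1 FPKM in labelled WT and 33.7, 34.7 and 40.7 FPKM in labelled strNrip1-/- mice. All 4 groups overlapped, and no log2 fold change with genotype within a training state or with training within a label exceeded 0.13 in size. The genotype difference averaged over training was 0.09 (95% interval -0.20 to 0.37, limma adjusted p-value 0.744).

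Hdac3 (chromosome 18, 37935844 to 37955016, minus strand), the enzyme of that complex, was by contrast tightly held. It was at 30.8, 31.1 and 32.6 FPKM in labelled WT sedentary and at 29.9, 29.0 and 27.7 FPKM in labelled strNrip1-/- sedentary libraries. Trained, the labelled WT libraries had 30.5, 31.9 and 30.7 FPKM and the labelled strNrip1-/- libraries 30.8, 33.8 and 30.1 FPKM. The labelled strNrip1-/- sedentary group lay below the 3 other groups without overlap. No share of all genes with such a separation was computed. The log2 difference of this group from labelled WT sedentary was -0.13 (95% interval -0.27 to 0.02, limma adjusted p-value 0.370), which did not pass the test. Over the 9 alternative settings other than leaving out a library, it ran from -0.28 to -0.047.

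Of the smaller subunits of the NCoR complex, Gps2 was measured at 39.5 FPKM, Tbl1xr1 at 3.83 FPKM and Tbl1x at 3.73 FPKM, as means over the 12 libraries. The exchange factors Tbl1x and Tbl1xr1 were thus far below Ncor1 and Hdac3 per length. None of these 3 genes was called in any comparison. The Hdac3 to Ncor1 ratio was 0.973 ± 0.198 and 0.817 ± 0.172 in sedentary and 0.905 ± 0.208 and 0.876 ± 0.120 in trained libraries, labelled WT first (SD, n = 3 each), and it overlapped between all groups.

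Among the class IIa deacetylases, Hdac5 (chromosome 11, 102194432 to 102230166, minus strand) was the most abundant and came closest of the partners to a call. It was at 35.2, 39.96 and 42.9 FPKM in labelled WT sedentary and at 34.8, 38.9 and 32.1 FPKM in labelled strNrip1-/- sedentary libraries. The trained libraries had 33.5, 29.5 and 32.7 FPKM in labelled WT and 36.1, 50.04 and 48.3 FPKM in labelled strNrip1-/- mice. The trained libraries of the 2 labels did not overlap, and the first labelled strNrip1-/- trained library stood well below the 2 others. The log2 fold change between labelled genotypes in trained libraries was 0.47 (SE 0.127, 95% interval 0.19 to 0.75, limma adjusted p-value 0.0531), a fold of 1.39, just short of the threshold. It passed in 4 of 21 alternative settings, and its adjusted p-value reached 0.183 in the others. Leaving out the first labelled strNrip1-/- trained library gave 0.62 (limma adjusted p-value 0.0134), and leaving out the second labelled strNrip1-/- sedentary library gave an adjusted p-value of 0.0482. The adjusted p-value was 0.0341 among genes of at least 5 FPKM and 0.0487 after scaling every library to one total.

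In sedentary libraries the Hdac5 difference had the other sign, at -0.16 (95% interval -0.43 to 0.12, limma adjusted p-value 0.639). The difference between the 2 genotype differences was 0.63 (95% interval 0.23 to 1.02, unadjusted limma p-value 0.00501). It did not pass adjustment over all genes (adjusted p-value 0.5503). Training in labelled WT libraries gave -0.30 (95% interval -0.58 to -0.02, limma adjusted p-value 0.563), with all 3 trained libraries below all 3 sedentary ones. Training in labelled strNrip1-/- libraries gave 0.33 (95% interval 0.05 to 0.61, limma adjusted p-value 0.343), with 1 trained library inside the sedentary range.

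Hdac4 (chromosome 1, 91928779 to 92195699, minus strand) had higher values in trained libraries of both labels. It was at 9.39, 5.29 and 9.29 FPKM in labelled WT sedentary and at 9.30, 8.10 and 7.87 FPKM in labelled strNrip1-/- sedentary libraries. Trained, the labelled WT libraries had 10.8, 9.88 and 13.2 FPKM and the labelled strNrip1-/- libraries 8.35, 11.9 and 11.5 FPKM. The groups did not overlap in labelled WT and overlapped in labelled strNrip1-/- libraries by the first trained one. The log2 fold change with training was 0.51 (95% interval 0.05 to 0.96, limma adjusted p-value 0.537) in labelled WT and 0.30 (95% interval -0.15 to 0.76, limma adjusted p-value 0.602) in labelled strNrip1-/- libraries. Averaged over both it was 0.40 (95% interval 0.08 to 0.73, unadjusted limma p-value 0.0180, adjusted p-value 0.290) and did not pass.

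The value in labelled WT rested in part on 1 library: without labelled WT sedentary replicate 2, the Hdac4 difference was 0.25 instead of 0.51. In that library the median deviation of 1052 genes with a transcript longer than 7000 nt, relative to that of 3180 genes with transcripts shorter than 2000 nt, was -0.18 on the log2 scale, while it was 0.01 in the other 2 libraries of the group. It was lower still, at -0.31, in labelled strNrip1-/- sedentary replicate 2, where Hdac4 and Ncor1 had the middle values of their group. In labelled WT trained libraries it was 0.13, -0.04 and 0.17. Replicate 3 there had the highest and replicate 2 the lowest Hdac4 and Ncor1 values of the group. In labelled strNrip1-/- sedentary replicate 3 it was 0.15, with the highest Ncor1 but the lowest Hdac4 value of that group. The longest transcript of Hdac4 has 8100 nt and that of Ncor1 has 9037 nt. Ncor1 was also lowest in labelled WT sedentary replicate 2. Whether this deviation moved the Hdac4 values was not tested. The exons of Hdac4 also share 3536 bases with Gm26720 on the opposite strand, and the kit did not keep strand, so fragments of both genes cannot be told apart there.

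Hdac9 (chromosome 12, 34047580 to 34917095, minus strand) was the lowest member. It was at 1.56, 1.91 and 1.04 FPKM in labelled WT sedentary and at 1.81, 1.43 and 1.51 FPKM in labelled strNrip1-/- sedentary libraries. The trained libraries had 1.86, 0.744 and 1.47 FPKM in labelled WT and 1.103, 0.754 and 1.08 FPKM in labelled strNrip1-/- mice. The 3 labelled strNrip1-/- trained libraries lay below the 3 sedentary ones of the same label, whereas both labelled WT groups spread widely and overlapped. The training difference was -0.50 (95% interval -1.02 to 0.03, limma adjusted p-value 0.429) in labelled strNrip1-/- and -0.13 (95% interval -0.66 to 0.39, limma adjusted p-value 0.924) in labelled WT libraries. Intervals this wide leave changes of up to a fold of 2 unresolved at this level.

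The balance between Hdac4 and Hdac5 set 1 group apart. The Hdac4 to Hdac5 ratio was 0.323, 0.335 and 0.404 in labelled WT trained libraries. It was between 0.132 and 0.267 in labelled WT sedentary, between 0.208 and 0.267 in labelled strNrip1-/- sedentary and between 0.232 and 0.239 in labelled strNrip1-/- trained libraries. All 3 labelled WT trained libraries therefore lay above the 9 others, with a group mean of 0.354 ± 0.0441 (SD, n = 3) against 0.205 ± 0.0681, 0.240 ± 0.0299 and 0.236 ± 0.00407 in the same order. Several ratios were examined, and this ratio, built from values already given, is a description without a test. No share of gene pairs with such a separation was computed. The longest transcript has 8100 nt for Hdac4 and 5406 nt for Hdac5. The highest ratio, 0.404, came from labelled WT trained replicate 3, where the length deviation given above was 0.17. The lowest ratio, 0.132, came from labelled WT sedentary replicate 2, where it was -0.18. The part of that deviation in the ratio was not tested. The Hdac4 to Hdac9 ratio was 5.91 ± 3.10 and 5.34 ± 0.288 in sedentary and 9.35 ± 3.75 and 11.3 ± 4.16 in trained libraries, labelled WT first (SD, n = 3 each), and the sedentary labelled strNrip1-/- range of 5.14 to 5.67 lay below both trained ranges, 5.81 to 13.3 and 7.57 to 15.8, while the sedentary labelled WT range of 2.77 to 8.97 overlapped with all others.

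Sirt1 (chromosome 10, 63319005 to 63381704, minus strand) was low and level. It was at 2.56, 2.78 and 2.86 FPKM in labelled WT sedentary and at 2.73, 2.65 and 2.34 FPKM in labelled strNrip1-/- sedentary libraries. Trained, the labelled WT libraries had 2.48, 3.30 and 2.57 FPKM and the labelled strNrip1-/- libraries 2.81, 2.33 and 2.32 FPKM. The 4 groups overlapped, and the genotype difference averaged over training was -0.10 (95% interval -0.29 to 0.09, limma adjusted p-value 0.528). The training difference averaged over genotypes was -0.01 (95% interval -0.20 to 0.18, limma adjusted p-value 0.974).

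Within their families, the members held very different places per length. Of the 11 classical HDAC genes, Hdac5 was first at 37.8 FPKM, ahead of Hdac2 at 30.8 and Hdac3 at 30.7 FPKM as means over the 12 libraries. Hdac4 came after Hdac1 at 10.3 FPKM, and Hdac9 was last. Of the 7 sirtuins, Sirt1 was last at 2.64 FPKM, below the mainly cytoplasmic Sirt2 at 65.3 FPKM and the mitochondrial Sirt3 at 24.2, Sirt4 at 14.3 and Sirt5 at 12.8 FPKM. These places are by mean: the ranges over the 12 libraries overlapped among Hdac5, Hdac2 and Hdac3. So did those of Hdac4 and Hdac1, of Hdac9 and Hdac6, and of Sirt1 and Sirt6.

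**Figure D4:**
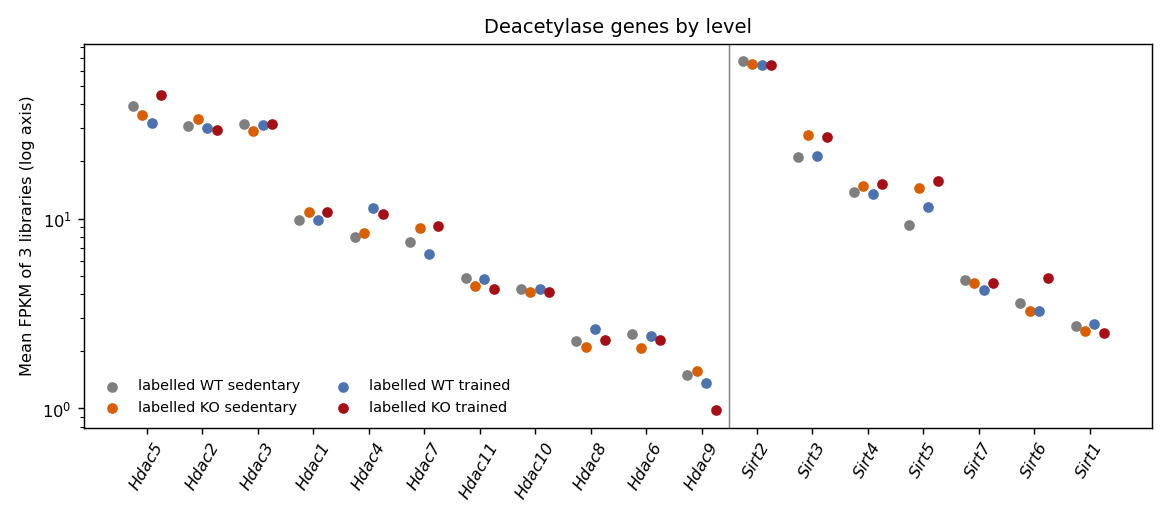
Mean FPKM of 3 libraries (vertical log axis) of the 11 HDAC and the 7 sirtuin genes, ordered by their mean over 12 libraries, with 1 point for each group and KO for labelled strNrip1-/-. By mean, Hdac5 leads the HDAC genes at 37.8 FPKM over the 12 libraries while Hdac9 and Sirt1 are last in their families, with ranges that overlap those of neighbouring genes.

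In these families 2 genes that are no members were called, 1 of the 4 class IIa HDAC genes and 1 of the 7 sirtuins. Of all genes tested, 3.51% were called when sedentary, 5.98% when trained and 8.8% on average. Hdac7, the fourth class IIa gene, which is known from endothelial cells, was at 7.49 ± 0.734 and 8.92 ± 0.877 FPKM in labelled WT and labelled strNrip1-/- sedentary libraries and at 6.47 ± 0.685 and 9.10 ± 1.01 FPKM in trained ones (SD, n = 3 each). Its genotype difference was called in trained libraries, at 0.46 (limma adjusted p-value 0.0375), and on average, at 0.35 (limma adjusted p-value 0.0178). The call in trained libraries was lost in 11 of 21 alternative settings. The endothelial markers were higher in the same libraries, as given above, and their part in this difference was not tested. Sirt5, a mitochondrial enzyme that removes succinyl and malonyl groups, was at 9.28 ± 0.340 and 14.5 ± 1.58 FPKM in labelled WT and labelled strNrip1-/- sedentary and at 11.5 ± 1.93 and 15.8 ± 0.790 FPKM in trained libraries (SD, n = 3 each). It was called higher in both training states and on average, where the log2 fold change was 0.53 (limma adjusted p-value 0.00199). None of the 4 class I genes and none of Hdac6, Hdac10 and Hdac11 was called in any comparison.

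The other complexes in which CtBP and class I deacetylases take part were followed next, and counts of calls on average are to be read against the 8.8% of all genes called there. Of 9 tested genes around CtBP and CoREST, another CtBP-linked corepressor complex, none was called in any comparison, with a median genotype difference of 0.10 on average. Of 15 genes of the Sin3 and NuRD deacetylase complexes 1 was called higher and 1 lower on average, against 8.8% of all genes, with a median of 0.02. They were Mta3, a NuRD subunit, at 0.35 (limma adjusted p-value 0.0382), and Sap30, a Sin3 subunit, at -0.50 (limma adjusted p-value 0.0428). Sap30 was called when sedentary, at -0.82 (limma adjusted p-value 0.0483), and not when trained, at -0.18 (limma adjusted p-value 0.669). Mta3 was called in neither training state. Both genes were named after their values were seen. The average call was lost in 12 of 19 alternative settings for Sap30 and 11 of 19 for Mta3.

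Of 19 tested genes for proteins that bind, phosphorylate or carry class IIa deacetylases, none was called higher in any comparison. Called lower were 1 gene when sedentary, 2 when trained and 1 on average, against 3.51%, 5.98% and 8.8% of all genes tested. Camk2a, a calcium-dependent kinase, was at 251 ± 26.2 and 184 ± 20.7 FPKM in labelled WT and labelled strNrip1-/- sedentary libraries and at 267 ± 6.14 and 175 ± 3.05 FPKM in trained ones (SD, n = 3 each). It fell in both training states and by 0.53 on the log2 scale on average (limma adjusted p-value 4.33e-04). Mef2a, a transcription factor that class IIa deacetylases bind, was called lower in trained libraries, with a log2 fold change of -0.31 (limma adjusted p-value 0.0187), from 26.5 ± 0.742 to 21.2 ± 0.515 FPKM (SD, n = 3 each), and lost this call in 6 of 21 alternative settings. The median genotype difference of the 19 genes on average was -0.06, with 0.0034 over all genes tested.

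Of 20 tested nuclear receptors, 3 were called higher and 2 lower on average between the labelled genotypes, against 8.8% of all genes tested. Esrra, an estrogen-related receptor that RIP140 binds, was higher in every labelled strNrip1-/- library, with a log2 fold change of 0.62 (limma adjusted p-value 2.54e-05), and Esrrb of the same family, at 1.24 to 1.86 FPKM in labelled WT and 2.34 to 2.66 FPKM in labelled strNrip1-/- libraries, also had 0.62 (limma adjusted p-value 9.31e-04). The retinoic acid receptor Rara was called higher at 0.52 (limma adjusted p-value 0.0137). The retinoid X receptor Rxrg, a common partner of other nuclear receptors, was called lower at -0.59 (limma adjusted p-value 3.35e-04), and the activity-induced orphan receptor Nr4a1 at -0.56 (limma adjusted p-value 0.00584). Within a training state, Esrra, Esrrb and Rxrg were called in both, Nr4a1 only when sedentary and Rara in neither. The receptors that moved on average therefore did so in both directions, and the median over the 20 was 0.05.

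Of 13 tested genes known to respond to HDAC4 in denervated muscle, 1 was called higher and 2 lower on average, against 8.8% of all genes tested. Dach2, a repressor that HDAC4 acts with or on after denervation, was between 0.152 and 0.614 FPKM in labelled WT and between 0.725 and 1.15 FPKM in labelled strNrip1-/- libraries, with a log2 fold change of 0.72 (limma adjusted p-value 0.00308) that ran from 0.48 to 1.21 over 19 alternative settings. It reached the mean of 0.5 FPKM needed for testing only through the labelled strNrip1-/- libraries, so its call is given as a description. Trim63, a muscle ubiquitin ligase, was called lower at -0.44 (limma adjusted p-value 0.0190), and Eno3, the muscle enolase of glycolysis, at -0.37 (limma adjusted p-value 0.0130). Within a training state, Dach2 was called only when sedentary, Eno3 only when trained and Trim63 in neither. Hdac4 itself had a genotype difference of 0.01 (95% interval -0.31 to 0.33) on average.

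The pattern of Nrip1 over the 12 libraries was most like that of Slc38a10, Fabp3 and Igsf8 among the 12744 genes tested, measured as the root mean square difference of centred log2(FPKM + 0.5) values. That difference was 0.259 for Slc38a10, an amino acid transporter family gene, 0.278 for Fabp3, which carries fatty acids in the cytoplasm of muscle, and 0.333 for Igsf8, a membrane protein gene. Slc38a10 was between 18.8 and 22.03 FPKM in labelled WT and between 62.6 and 84.9 FPKM in labelled strNrip1-/- libraries. Fabp3 was between 326 and 532 FPKM in labelled WT and between 1312 and 1917 FPKM in labelled strNrip1-/- libraries, and Igsf8 was between 4.97 and 7.70 FPKM and between 17.8 and 25.5 FPKM. Like Nrip1, these 3 genes separated the labelled genotypes without overlap, with log2 fold changes of 1.87 for Slc38a10, 1.99 for Fabp3 and 1.94 for Igsf8 on average. Both the separation and the size of these differences follow from choosing the genes by their likeness to Nrip1 over the same 12 libraries.

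**Figure D5:**
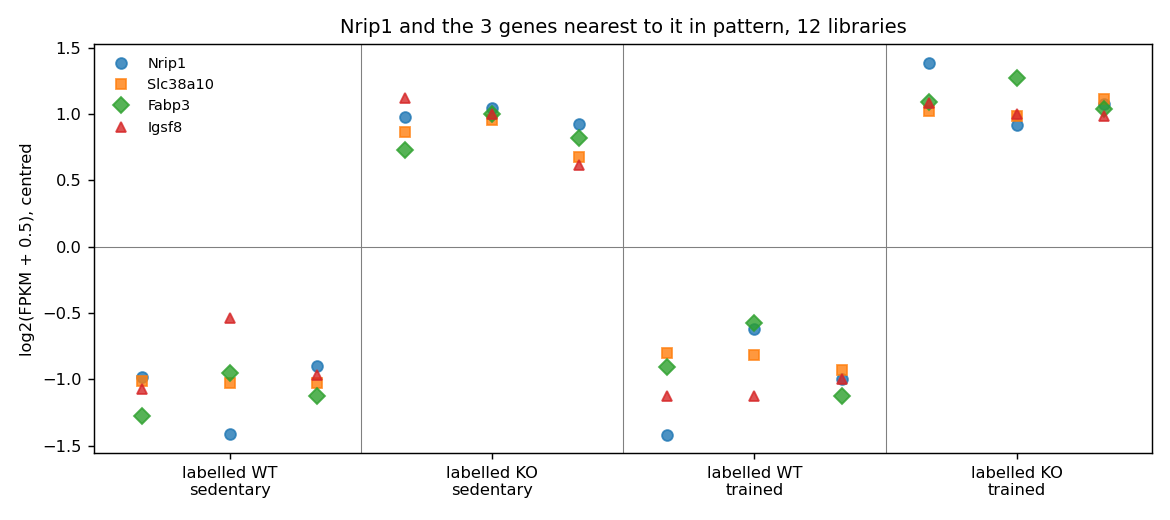
Values of log2(FPKM + 0.5) of Nrip1 and of the 3 genes nearest to it in pattern, each centred on its own mean, in the 12 libraries (horizontal axis, 3 libraries in each of 4 groups; KO stands for labelled strNrip1-/-). All labelled WT values lie below 0 and all labelled strNrip1-/- values above 0, with root mean square differences from Nrip1 of 0.259 for Slc38a10, 0.278 for Fabp3 and 0.333 for Igsf8.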

How the data were processed

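RNA-seq of mouse EDL muscle, with 12 libraries in 4 labelled groups, was analysed. The authors state that they quantified fragments with Salmon (1.10.2) against mm10, summed transcripts to genes with tximport and tested genes with DESeq2 (1.44.0); the kit did not keep strand, and the annotation release and transcript lengths behind the values were not given in the sources used here. The authors deposited FPKM for each gene and library, which were used here. They also deposited log2 fold changes and an adjusted p-value for each of their comparisons, which were not used.

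Since FPKM are not counts, log2(FPKM + 0.5) was fitted with limma 3.58.1 in R 4.3.3 (4 group means, 12 libraries, trended eBayes, two-sided tests, Benjamini-Hochberg adjustment over the 12744 genes whose mean reached 0.5 FPKM). The script was tested on simulated data. Depth was estimated from 1613 genes with a single transcript of at least 1500 nt, where 99.1% to 99.6% of low values were whole fragments to within 0.15. A level of 3 fragments on a 2 kb gene was 0.0516 to 0.0751 FPKM, which covers counting error only. No 2 libraries of a group held identical values. GENCODE M21 matched 17732 of 17752 gene identifiers. The members and gene lists were chosen with earlier results of these data known. All 9 members are named, with the called genes of the lists, up to 12 by adjusted p-value, and the 3 genes nearest to a called member. Alternatives were 2 other pseudocounts, no filter or a filter at 5 FPKM, 3 other scalings, only the libraries compared, a replicate block and leaving out each library. The values of 1 gene of the lists are left out here.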

Additional observations from a re-analysis of the deposited data

How the results depend on the processing

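Of 1275 recomputed log2 fold changes of the 9 members, 21 changed sign under other settings and 56 when 1 library was left out, 4 gained a call and none lost one; the 4 were Hdac5 in trained libraries, given above, and the cause was not tested. The calls of Nrip1 held under every setting run. Counts of called genes moved to 166 (sedentary) and 445 (trained) when only the libraries compared were fitted. With training they moved from 0 in labelled WT to 8 at a mean of at least 5 FPKM, 4 by quantile normalization, 1 and 2 by rescaling to the same sum and the same nuclear sum, and 4 under the replicate block, from 0 in labelled strNrip1-/- to 5, 150 and 3 (at least 5 FPKM, same sum, same nuclear sum), and on average from 15 to 28 (quantile) and 26 (same sum). Leaving out 1 library gave 163 to 478 (sedentary), 315 to 874 (trained), 0 to 30 and 0 to 4 (training in labelled WT and strNrip1-/-), 849 to 1193 and 1 to 190 (averages of genotype and training) and 0 to 1 (interaction). The 30 and the 190 came without labelled WT trained replicate 1. Rescaling to the same sum moved the median of all genes by -0.14 in the sedentary and 0.16 in the labelled strNrip1-/- training comparison, and the share of calls that were higher from 54.8% to 18.6% (sedentary), 53.7% to 80.8% (trained) and 55.6% to 45.02% (average), and the same nuclear sum to 82.7%, 75.8% and 77.5%. Replicate numbers did not pair libraries throughout (same-number correlations of -0.052 to 0.195). For number 2 they exceeded the highest other-number correlation when sedentary (0.162 against 0.0352) and with training in labelled WT (0.195 against -0.0486). They lay below it when trained (-0.052 against 0.0696) and with training in labelled strNrip1-/- (-0.0285 against 0.0963). Number 3 exceeded it when sedentary (0.112 against 0.0701) and with training in labelled strNrip1-/- (0.109 against 0.00552). The replicate block changed no member's call. Signs turned as follows, none of them called. Same sum: Ctbp1 -0.036, Ctbp2 -0.025 and Hdac4 -0.036 (genotype on average), Ncor1 -0.029, Hdac4 -0.038 and Hdac9 -0.039 (sedentary), Sirt1 -0.025, 0.11 and 0.040 (training in labelled WT, labelled strNrip1-/- and on average), and Ncor1 0.15, Hdac4 0.0044 and Sirt1 0.13 (interaction). Nuclear sum: Ctbp1 0.0043 (sedentary), Hdac3 0.0060 (average) and Ncor1 -0.014 (training, labelled strNrip1-/-). Quantile: Ctbp2 -0.00097 and Hdac4 -0.0023 (average), Hdac3 -0.010 (trained), Ncor1 -0.036 and Sirt1 0.0074 (training, labelled strNrip1-/-) and Sirt1 0.0080 (training on average). Leaving out 1 library spanned 0 in the genotype comparisons for Ncor1 (-0.038 to 0.23), Hdac4 (-0.15 to 0.24) and Hdac9 (-0.10 to 0.22) when sedentary, Ncor1 (-0.094 to 0.20), Hdac3 (-0.026 to 0.055) and Hdac4 (-0.18 to 0.061) when trained, and Ctbp1 (-0.018 to 0.028), Ctbp2 (-0.073 to 0.061) and Hdac4 (-0.12 to 0.086) on average; in training in labelled WT for Nrip1 (-0.11 to 0.29), Ctbp2 (-0.26 to 0.032), Ncor1 (-0.077 to 0.23), Hdac3 (-0.042 to 0.0021), Hdac9 (-0.33 to 0.13) and Sirt1 (-0.095 to 0.080), in labelled strNrip1-/- for Ncor1 (-0.086 to 0.16) and on average for Ncor1 (-0.031 to 0.13), Hdac5 (-0.026 to 0.090) and Sirt1 (-0.069 to 0.019); and in the interaction for Nrip1 (-0.14 to 0.25), Ncor1 (-0.22 to 0.092), Hdac4 (-0.34 to 0.051) and Sirt1 (-0.13 to 0.054). Ctbp2, Hdac9 and Sirt1 lie under the mean of 5 FPKM and have no value there. Hdac7 and Rara lost their average call under the same sum (adjusted p-values 0.0753 and 0.0682), and Trim63 under the same nuclear sum (0.0577).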
